A study of Mus musculus with 67 samples.

Results

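RNA was compared between blastocysts and morulae of mouse embryos that had been exposed to high-intensity light at the 2-cell stage. The comparison took the 6 light blastocyst and the 6 light morula libraries by their labels, 12 of the 67 libraries of the series. By the study's methods all embryos were C57BL/6, made by in vitro fertilization from oocytes of 6-week-old females and sperm of 10-week-old males. The light group had received 5000 lx for 6 h and was then cultured in the dark, whereas the control group was kept in the dark. Each library was a SMART-seq2 library of 1 cell picked by hand from a dissociated embryo, and its position in the embryo is not given in the sources used here. The titles give each library a number within its group as an embryo, and nothing says whether libraries of different numbers share an origin. The 13 control morula and 3 control blastocyst libraries served as the unexposed comparison. No source says that libraries of a group came from separate litters or cultures, so p-values measure the spread between these libraries.

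The morula is a compact ball of cells, and the blastocyst has a fluid-filled cavity. Its outer cells form the trophectoderm, an epithelium that founds the placenta, pumps ions and water into the cavity and is sealed by tight junctions. The inner cell mass gives rise to the epiblast, which forms the fetus, and to the primitive endoderm. TEAD4 with the Hippo pathway coactivator YAP1, CDX2, GATA3 and TFAP2C are known regulators of the trophectoderm. POU5F1, NANOG and SOX2 are known for the inner cell mass.

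Among the genes called trophectoderm markers here, 3 had the letters GATAA in the 250 bases before their RefSeq start, and these are shown because Gata2 was among the largest rises and Gata3 also rose, while Gata4 and Gata6 were not called. The 3 are the keratin genes Krt8 and Krt18 on chromosome 15, whose proteins pair in the filaments of simple epithelia, and Dppa1 on chromosome 11. The coordinates, in GRCm38.p6, are chr15:102004343-102004592 on the minus strand for Krt8, chr15:102027966-102028215 on the plus strand for Krt18 and chr11:46629275-46629524 on the minus strand for Dppa1. Sequences run 5′ to 3′ on the strand of the gene, and capitals mark GATAA or its reverse complement TTATC.
Krt8: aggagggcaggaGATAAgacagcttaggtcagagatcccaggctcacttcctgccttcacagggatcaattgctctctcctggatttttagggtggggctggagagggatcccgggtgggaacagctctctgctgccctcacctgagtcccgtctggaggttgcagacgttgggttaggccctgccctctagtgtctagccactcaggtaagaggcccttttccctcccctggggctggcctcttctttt
Krt18: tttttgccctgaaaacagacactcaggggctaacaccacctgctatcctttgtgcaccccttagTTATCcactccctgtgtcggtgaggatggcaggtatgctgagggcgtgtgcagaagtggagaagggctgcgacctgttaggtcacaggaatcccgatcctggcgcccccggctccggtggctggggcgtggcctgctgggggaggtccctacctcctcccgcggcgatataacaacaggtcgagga
Dppa1: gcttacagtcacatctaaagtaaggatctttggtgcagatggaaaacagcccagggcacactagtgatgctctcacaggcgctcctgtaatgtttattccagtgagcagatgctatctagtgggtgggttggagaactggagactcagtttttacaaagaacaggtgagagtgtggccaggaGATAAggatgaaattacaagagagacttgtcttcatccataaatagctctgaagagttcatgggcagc
The motif, searched on both strands, was in 22.6% of all 32851 promoters of the table and in 14.6% of the 10024 first promoters of genes tested here. It was in 14.1% of the first promoters of genes that rose and in 15.0% of those of genes that fell. The 14 called trophectoderm genes with an entry included 3 with the motif. The genes and the motif were chosen after the expression values were seen.

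Total reads lay between 1824494 and 5765625 in light morulae and between 4879217 and 7759198 in light blastocysts. Most of these reads fell on the ribosomal RNA genes CT010467.1 and Gm42418, which held 75.3% ± 3.87 (SD, n = 6) of them in morulae and 84.4% ± 4.12 (SD, n = 6) in blastocysts (exact permutation test, 2-sided, adjusted p = 0.0195 over 6 technical measures). Levels are therefore given as CPM, the deposited values outside this pair scaled to the same total in every library, and genes with CPM above 1 did not differ in number beyond the spread (adjusted p = 0.755, exact permutation test). Levels of single genes cannot tell less RNA per cell from a smaller share of it. The closest pair of libraries differed by more than counting error in either group, with a chi-square per degree of freedom of 8.48 and 8.98.

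Light morulae and light blastocysts differed in the reads that mark sex, and 2 blastocyst libraries stood apart. Xist, the RNA that coats the inactive X chromosome, was between 1460 and 3230 CPM in 5 of 6 light morulae, which had at most 2.04 CPM on 8 Y-linked genes together. Light morula 9 had 34.3 CPM of Xist and 143 CPM on the Y-linked genes. Each light blastocyst held Y-linked reads, from 42.0 to 168 CPM, and Xist was between 19.2 and 58.0 CPM in 4 of them. Blastocysts 13 and 15 held both, with 428 and 419 CPM of Xist. The change of stage cannot be told apart from this difference for genes that follow the sex of an embryo. On the X chromosome 44 of 511 genes rose and 45 fell, with a median log2 change of -0.19, against 0.02 over 14550 genes of the other chromosomes.

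**Figure D1:**
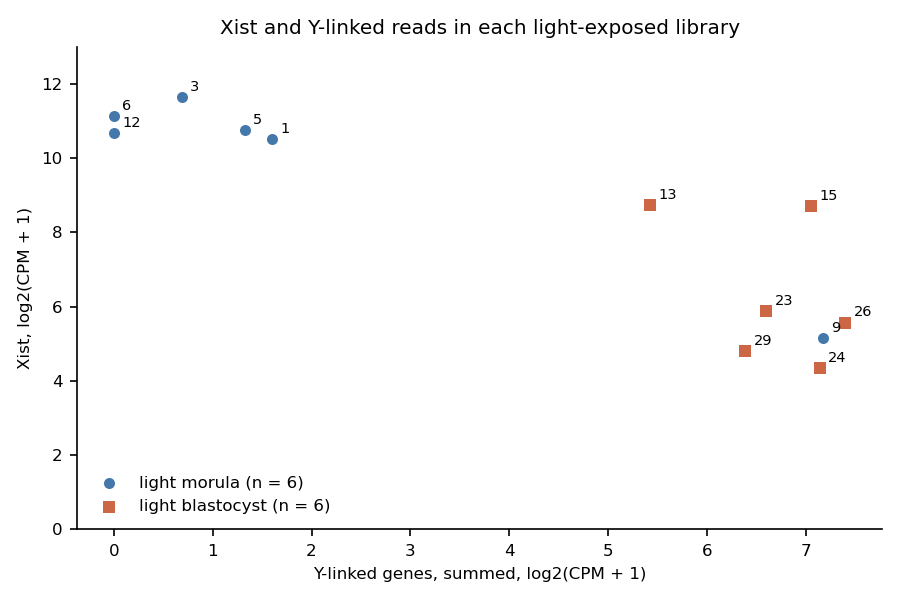
Xist against the summed CPM of 8 Y-linked genes, both as log2(CPM + 1), with 1 point per light-exposed library labelled by its replicate number. Light morulae other than 9 sit at the upper left, 4 light blastocysts and morula 9 at the lower right, and blastocysts 13 and 15 hold both kinds of reads.

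The 2 groups of light libraries differed across the whole profile. The split by stage took 26.2% of the squared distance between the 12 libraries on log2(CPM + 1), the largest share among all 924 regroupings (exact permutation test, one-sided, p = 0.00216, the smallest it can give). This split also went with the sex marks of most libraries, with total reads and with the share on the ribosomal RNA pair. The test cannot tell stage apart from these. Spearman correlations had a median of 0.825 between pairs of light blastocysts (0.796 to 0.869), 0.783 between pairs of light morulae (0.742 to 0.814) and 0.721 between stages (0.668 to 0.787). Of 15067 genes tested with limma, 2002 (13.3%) changed at least 2-fold with an adjusted p under 0.05, of which 1197 (7.94% of genes tested) rose and 805 (5.34%) fell. The median of all genes was 0.01 on the log2 scale, and 4223 genes had an unadjusted p under 0.05. The libraries of the 2 stages did not overlap in 937 genes (6.22% of genes tested), 846 of them called (5.61%). The share of called genes that rose was 59.8%, and on the deposited scale, which moves the median of all genes to -0.39, it was 23.7% of 2672. No called gene had the opposite sign on that scale or under the other scalings and count tests, and 1438 of the 2002 were called there in the same direction. Without blastocysts 13 and 15, 1060 genes rose and 776 fell.

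Most trophectoderm markers rose together in the light-exposed blastocysts. Of 26 markers tested, 15 rose and 0 fell, with a median log2 change of 2.78 beside 0.01 over all genes. These were Dppa1, Gata2, Id2, Krt8, Eomes, Tfap2a, Tspan8, Krt18, Krt7, Krt19, Tinagl1, Cdx2, Elf5, Gata3 and Fgfr2. The summed level of the 28 listed markers was between 2612 and 6785 CPM in morulae and between 15745 and 20405 CPM in blastocysts, so each blastocyst library, 13 and 15 included, lay above each morula. Without blastocysts 13 and 15 the count was again 15.

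Cdx2, a homeobox factor required for the trophectoderm, had 14.3, 46.8 and 119.9 CPM as lowest, median and highest value in light morulae and 309, 501 and 617 CPM in light blastocysts. The groups did not overlap, the mean was 8.31-fold higher, and the difference on log2(CPM + 1) was 3.34 ± 0.41 (SE, limma adjusted p = 2.2e-06). Gata3, a zinc-finger factor that acts beside Cdx2, went from 78.2, 212 and 487 CPM to 877, 1097 and 1318 CPM, a difference of 2.41 ± 0.32 (limma adjusted p = 5.0e-06). Its relative Gata2 was at 0 in most morulae and at most 1.19 CPM, and between 60.7 and 262 CPM in blastocysts. Eomes, a T-box factor of trophoblast stem cells, was 0, 4.24 and 67.7 CPM against 92.8, 343 and 663 CPM, again without overlap. Its difference was 5.71 ± 0.76 (limma adjusted p = 6.1e-06).

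Keratins 8 and 18, with the promoters printed above, are the filament pair of this epithelium. Krt8 had 10.5, 118 and 423 CPM in morulae and 4885, 5357 and 7077 CPM in blastocysts, a mean 32.9-fold higher (difference 6.02 ± 0.57, limma adjusted p = 4.2e-08). Krt18 had 21.8, 300.2 and 411 CPM in morulae and 1853, 2855 and 5382 CPM in blastocysts (3.99 ± 0.47, limma adjusted p = 1.2e-06). Both keratins were above every morula in every blastocyst. Id2, an inhibitor of basic helix-loop-helix factors, was 0, 3.93 and 47.1 CPM against 296, 566 and 986 CPM. Dppa1 was at most 1.19 CPM in morulae and 213, 285 and 374 CPM in blastocysts (7.84 ± 0.56, limma adjusted p = 5.7e-10).

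Upstream regulators of this lineage were already present in the morulae. Tead4 had a median of 182 CPM in morulae and 192 CPM in blastocysts (difference 0.17 ± 0.35, limma adjusted p = 0.79), and Tfap2c 176 and 163 CPM (-0.09 ± 0.37, limma adjusted p = 0.90). Their groups overlapped. Of 26 Hippo pathway genes, 2 rose and 1 fell (median 0.33), 7.69% and 3.85% beside 7.94% and 5.34% of all genes tested. The risen genes were Tead2, a relative of Tead4, with 0, 3.33 and 15.9 CPM against 19.6, 56.5 and 126 CPM, and Amotl2, an angiomotin that binds YAP1, with 15.8, 84.0 and 118 CPM against 159, 295 and 443 CPM. The kinase gene Lats1 fell from a median of 25.6 to 2.66 CPM (-2.62 ± 0.86, limma adjusted p = 0.04), with overlap, and was not called under 15 alternatives, among them edgeR, DESeq2 and 9 of the 12 single libraries left out. Yap1 had medians of 57.5 and 88.9 CPM (0.89 ± 0.39, limma adjusted p = 0.13).

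**Figure D2:**
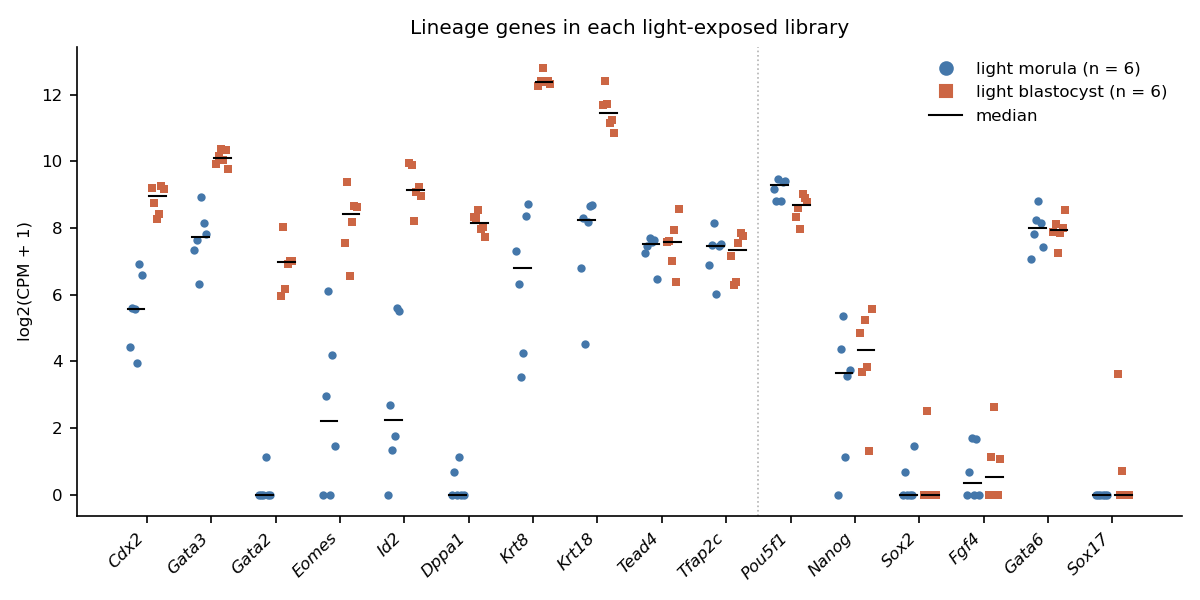
log2(CPM + 1) of 16 lineage genes in the 6 light morula and 6 light blastocyst libraries, with a line at each median; trophectoderm genes are left of the dotted line, inner cell mass and primitive endoderm genes right of it. Cdx2, Gata3, Gata2, Eomes, Id2, Dppa1, Krt8 and Krt18 do not overlap between stages, while Tead4, Tfap2c, Gata6 and Nanog do.

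Sox2 and Fgf4 were at or near 0 at both stages, whereas Pou5f1 was present in each library and Nanog at low levels. Sox2 was at most 1.77 CPM in light morulae and 4.72 CPM in light blastocysts, too low to be tested, and Fgf4, the growth factor that epiblast cells send to primitive endoderm precursors, was at most 2.26 and 5.15 CPM. Nanog had medians of 11.6 and 20.6 CPM with overlap (1.05 ± 0.90, limma adjusted p = 0.48), and Pou5f1 had 623 and 413 CPM (-0.58 ± 0.26, limma adjusted p = 0.13). Of 18 epiblast and inner cell mass genes tested, 3 rose and 4 fell (median -0.32). Esrrb, a nuclear receptor of the naive state, fell from 65.5, 110.1 and 165 CPM to 1.07, 5.94 and 37.7 CPM (-3.67 ± 0.59, limma adjusted p = 9.6e-05). Tbx3, a T-box factor, fell from 308, 404 and 640 CPM to 91.2, 132 and 215 CPM (-1.69 ± 0.30, limma adjusted p = 0.00024), and neither gene overlapped between stages. Tdgf1 and Dppa4 also fell. The genes that rose were Fgfr1, Dppa5a and Tfcp2l1.

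Of 16 primitive endoderm genes tested, 3 rose (Serpinh1, Sparc and Lama1, genes of the extracellular matrix and its assembly) and 1 fell (Amn), with a median of 0.06. Gata6 had medians of 256 and 245 CPM (0.02 ± 0.31, limma adjusted p = 0.98). Sox17 was 0 in every morula and reached 11.2 CPM in blastocyst 13, and Gata4 was at most 32.1 and 7.48 CPM. Lama1, a laminin chain of basement membranes, was at most 2.04 CPM in morulae and between 0.934 and 22.6 CPM in blastocysts, and it lost its call when single libraries were left out. Among 22 basement membrane and integrin genes, 4 rose and 1 fell.

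FGF receptors and their signalling genes moved in both directions. Of 29 genes, 7 rose and 3 fell (median 0.26). Fgfr2 rose from 7.14, 78.8 and 143 CPM to 114, 201 and 359 CPM, with overlap (2.07 ± 0.56, limma adjusted p = 0.013), and Fgfr1 from 10.7, 19.1 and 77.5 CPM to 77.9, 112 and 183 CPM, without overlap (2.17 ± 0.49, limma adjusted p = 0.0029). The adaptor gene Frs2 and the ERK phosphatase gene Dusp6 also rose, by 1.97 and 3.44. Spry2, a feedback inhibitor, fell by 2.26, the kinase gene Map2k2 by 1.47 and Fgfr3 by 3.16, all on the log2 scale.

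Some genes that build an epithelium and a cavity rose next to the trophectoderm markers. Of 22 adherens junction and desmosome genes, 9 rose and 0 fell (median 0.91), namely Dsg2, Dsc2, Jup, Dsp, Epcam, Pkp4, Vcl, Nectin2 and Ctnna1. Without blastocyst 13, without blastocyst 29 or without morula 6 the number was 5. The desmosomal cadherins Dsg2 and Dsc2 were at most 25.7 and 8.57 CPM in morulae and at least 55.1 and 35.4 CPM in blastocysts. E-cadherin, Cdh1, had medians of 274 and 527 CPM with overlap (0.95 ± 0.34, limma adjusted p = 0.06).

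Of 29 tight junction and polarity genes, 6 rose and 0 fell (median 0.97). Msn, moesin, which ties actin to the cell membrane, had 0.752, 9.47 and 70.7 CPM against 398, 743 and 876 CPM (5.67 ± 0.56, limma adjusted p = 1.2e-07). Its groups did not overlap. The summed level of the list was 3609 and 3238 CPM in blastocysts 13 and 15, below morula 9 (3731 CPM), and 5055 to 6523 CPM in the other 4 blastocysts, and without 13 and 15 the number that rose was again 6. The tight junction scaffold gene Tjp1 rose by 1.52 on the log2 scale, and Tjp3, Rdx and Pard3 also rose.

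Of 13 genes listed for ion pumps and water channels, 3 rose and 0 fell (median 0.45). Slc9a3r1, a scaffold for sodium-proton exchangers, had a median of 18.4 and at most 105 CPM in morulae and a median of 335 and at most 387 CPM in blastocysts, without overlap (4.56 ± 0.64, limma adjusted p = 1.2e-05). The pump genes Atp12a and Atp1b1 rose by 4.18 and 1.66 with overlapping groups, and Atp1b1 lost its call without blastocyst 23. The water channel gene Aqp3 had medians of 325 and 177 CPM (-0.71 ± 0.45, limma adjusted p = 0.32).

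The 15 largest rises among genes without overlap included 4 trophectoderm markers and several genes of the cytoskeleton and metabolism. Tmsb4x, which encodes an actin-binding peptide, was at most 0.610 CPM in morulae and 111, 273 and 706 CPM in blastocysts. Adh1, an alcohol dehydrogenase gene, was 0 in most morulae with a highest value of 14.2 CPM and had 134, 286 and 759.8 CPM in blastocysts. Inava had 0 reads in every morula and between 39.2 and 169.6 CPM in blastocysts, at least 26.1-fold higher when 3 reads per library are taken as the floor. The others in order of change were Peg10, Fam213b, Slc15a2, Klk7, Wipf1, Anxa6, Lgals1 and Epn3, between 7.20 and 5.81 on the log2 scale. The actin regulator gene Wipf1, the peptide transporter gene Slc15a2 and the protease gene Klk7 were at most 2.44 CPM in light morulae.

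Among the 15 largest falls, Cited1, a transcriptional coactivator gene on the X chromosome, went from 139, 268 and 542 CPM to 5.37, 16.9 and 54.3 CPM, a mean 14.4-fold lower (-3.89 ± 0.47, limma adjusted p = 1.5e-06). Bhmt, which encodes the enzyme that makes methionine from homocysteine and betaine, went from 268, 1100 and 4047 CPM to 41.9, 75.1 and 113 CPM, a mean 19.1-fold lower (-3.86 ± 0.41, limma adjusted p = 2.2e-07). Id3 went the other way from Id2, from 17.1, 68.5 and 275 CPM to 0, 1.19 and 14.0 CPM (-4.46 ± 0.79, limma adjusted p = 0.00028). The other genes were Grin1, Cpn1, Lpin1, Ptpn22, Plekhg5, Slc29a3, Otog, P4htm, Cplane1, St3gal2, Pqlc2 and Stmn3, between -4.66 and -3.73. Exons of 47 of the 142 named genes, Grin1 and Adh1 among them, overlap exons of another gene in GENCODE M21, and how the counting used strand is not given in the sources used here.

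Several glycolysis genes rose. Of 24 genes of glycolysis and glucose uptake, 8 rose and 1 fell, with a median of 1.33. Aldoa, aldolase A, had 185, 231 and 670.4 CPM in morulae and 1171, 1246 and 1660 CPM in blastocysts, 4.34-fold higher in the mean (2.27 ± 0.28, limma adjusted p = 2.4e-06). Tpi1, triosephosphate isomerase, had 0, 5.61 and 94.2 CPM against 164, 270 and 418 CPM (5.09 ± 0.76, limma adjusted p = 3.2e-05). Eno1, Gapdh, Pkm, Hk2, Pgk1 and Gpi1 rose too, by 3.46, 2.97, 2.63, 2.55, 2.45 and 1.61 on the log2 scale. The glucose transporter gene Slc2a8 fell by 2.31. Blastocysts 13 and 15 lay within the range of the other blastocysts for the summed level of this list.

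Of 25 cholesterol synthesis genes, 8 rose and 0 fell (median 1.18). Mvk, mevalonate kinase, was at most 4.28 CPM in morulae and 34.8, 46.5 and 67.6 CPM in blastocysts (4.98 ± 0.75, limma adjusted p = 3.5e-05), and the others were Srebf2, Nsdhl, Mvd, Pmvk, Acat2, Idi1 and Hmgcs1. Antioxidant enzyme genes rose in 7 of 33 cases and fell in 0 (median 0.51). Glrx, glutaredoxin, had 0, 5.30 and 11.3 CPM against 102, 155 and 234 CPM, and Cat, catalase, had 16.5, 46.5 and 53.1 CPM against 152, 172 and 234 CPM, both without overlap. Sod2, Prdx1, Gss, Srxn1 and Keap1, which does not encode an enzyme, were the other 5. On the deposited scale 4 of the cholesterol genes, 4 of the antioxidant genes, 5 of the adherens junction genes and 3 of the tight junction genes rose. Genes named above that were not called on that scale included Fgfr2, Dppa5a, Tjp1, Atp1b1 and Lama1. Of the genes named below, Bak1, H2afx, Mdc1, Aurkb and Cyc1 were among those not called there.

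Genes of DNA methylation and demethylation rose in 5 of 17 cases and fell in 0 (median 1.13), and in 3 cases without morula 1. Uhrf1, which brings the maintenance methyltransferase to replicated DNA, went from 1.83, 29.3 and 62.1 CPM to 109, 204 and 253 CPM (3.36 ± 0.58, limma adjusted p = 0.0002). Tdg, a glycosylase that removes oxidized methylcytosine, rose by 3.87, and Dnmt3b, Mbd1 and Tet2 also rose. Both Uhrf1 and Tdg were without overlap.

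Several p53 target genes fell, with morula 9 near the blastocysts and morula 12 between them and the other morulae in summed level. Of 28 targets tested, 10 fell and 0 rose, with a median of -1.20. They were Plk2, Pmaip1, Zmat3, Trp53inp1, Ei24, Tnfrsf10b, Cdkn1a, Sesn2, Ccng1 and Trp53 itself. The summed level of the 29 listed genes was 5552, 6148, 4605, 6816, 1604 and 3318 CPM in morulae 1, 3, 5, 6, 9 and 12, and between 1670 and 2425 CPM in blastocysts. Morula 9, the morula with Y-linked reads, was the lowest of all 12 libraries. In 8 of the 10 called genes its level lay within the range of the blastocysts, and 0 of the 10 were without overlap between stages. Without morula 9 the number that fell was 13, and without blastocysts 13 and 15 it was 8. It was 7 without morula 1, without morula 5 or without morula 6, and also 7 with no filter on low values.

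Cdkn1a, which encodes the cell cycle inhibitor p21, had 199.9, 666 and 1356 CPM in morulae and 125, 172 and 218 CPM in blastocysts (-1.74 ± 0.39, limma adjusted p = 0.0029). Pmaip1, which encodes the cell death protein NOXA, had 32.1, 209.9 and 419.6 CPM against 0, 24.1 and 34.8 CPM (-3.55 ± 0.68, limma adjusted p = 0.00063). Plk2, a polo-like kinase gene, had 2.14, 218 and 377 CPM against 0, 2.15 and 9.60 CPM (-5.14 ± 0.92, limma adjusted p = 0.00031). In each of the 3 genes morula 9 reached into the range of the blastocysts. Morula 12 did so for Cdkn1a (199.9 CPM), and it had 47.8 CPM of Plk2 but 239 CPM of Pmaip1.

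Of 48 DNA damage response and repair genes, 3 rose and 4 fell (median -0.28). These shares were 6.25% and 8.33%, beside 7.94% and 5.34% of all genes tested. The damage kinase genes Atm and Chek2 fell by 1.49 and 1.23, the base excision repair genes Apex1 and Ung by 1.29 and 1.22, and H2afx, Mdc1 and Ercc4 rose. Of 24 BCL2 family and caspase genes, 3 rose (Bak1 and Bad among them) and 2 fell (Pmaip1 and Bid), of which Bak1 and Bid lost their calls when single libraries were left out. Of 32 genes of the unfolded protein and integrated stress response, 0 rose and 5 fell (median 0.09). Psat1, a serine synthesis gene, had 695, 1230 and 1746 CPM in morulae and 112, 184 and 230.4 CPM in blastocysts (-2.69 ± 0.28, limma adjusted p = 2.0e-07). Phgdh, of the same pathway, the amino acid carrier gene Slc3a2, Dnajb9 and Cebpb also fell. Heat shock chaperone genes rose in 2 and fell in 2 of 23 cases, 8.70% each way beside the same shares of all genes.

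DNA replication genes rose in 3 and fell in 2 of 36 cases. These shares, 8.33% and 5.56%, were near the 7.94% and 5.34% of all genes tested. The 2 subunits of ribonucleotide reductase changed in opposite directions, with Rrm1 at 33.3, 266 and 378 CPM in morulae and 428, 666 and 1002 CPM in blastocysts, and Rrm2 at 1257, 1584 and 1909 CPM in morulae and 514, 616 and 986 CPM in blastocysts. Neither overlapped between stages. Mitosis genes rose in 3 of 30 cases (Ccnb2, Aurkb and Mki67), 10% beside 7.94% of all genes tested, and fell in 0. A list of cell cycle inhibitors and D and E cyclins also held Mycn and Cdk2, which are neither. Of its 19 tested genes, Mycn, Ccnd3 and Cdk2 rose and Cdkn1a fell.

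**Figure D3:**
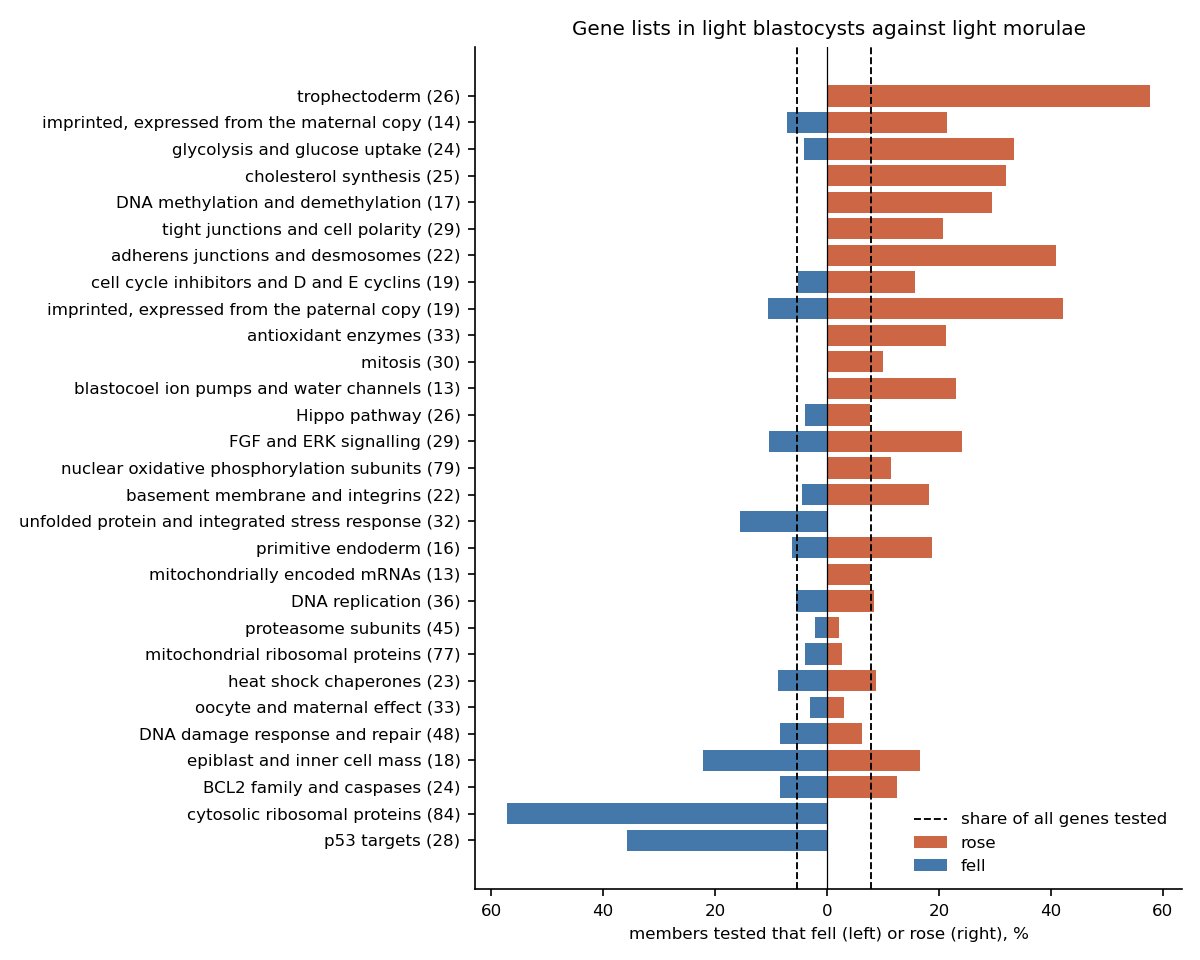
Share of the tested members of each gene list that rose (right) or fell (left) in light blastocysts against light morulae, in percent, with the number of members tested in brackets; lists with fewer than 10 tested members are not drawn. Dashed lines mark the shares over all genes tested, 7.94% and 5.34%. Trophectoderm genes lie furthest to the right, then paternally expressed imprinted genes and adherens junction genes. Several other lists, glycolysis and cholesterol synthesis among them, lie further right than tight junction genes. Ribosomal protein genes and p53 targets lie furthest to the left.

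mRNAs of cytosolic ribosomal proteins fell in most light blastocysts. Of 84 tested, 48 fell and 0 rose (median -1.15). Their summed level was between 48483 and 57781 CPM in morulae and between 16659 and 20620 CPM in blastocysts 23, 24, 26 and 29, but 48326 CPM in blastocyst 13 and 39215 CPM in blastocyst 15. Without these 2 libraries 68 fell. Rpl39 had 416, 672 and 720 CPM in morulae and 39.3, 58.4 and 294 CPM in blastocysts (-2.88 ± 0.38, limma adjusted p = 6.7e-06), and Rpl41 had 1373, 2206 and 2713 CPM against 312, 401 and 978 CPM (-2.09 ± 0.29, limma adjusted p = 9.3e-06). These genes make short transcripts, and the 28 with a median transcript under 600 bases had a median change of -1.49, the 13 between 1000 and 2000 bases one of -0.84. Other protein-coding genes with a transcript under 600 bases had a median of 0.02 (n = 455), and 4.62% of them fell.

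Mitochondrially encoded mRNAs, summed, took a larger part of the libraries at the blastocyst stage, but most of them did not rise. The 13 mRNAs encoded in the mitochondrial genome held 1.02% ± 0.19 (SD, n = 6) of the CPM in morulae and 2.43% ± 1.04 (SD, n = 6) in blastocysts (exact permutation test, 2-sided, adjusted p = 0.0130), without overlap. mt-Co1, a subunit of cytochrome c oxidase, was the 1 member called, with 2141, 3217 and 3596 CPM against 7491, 9893 and 23991 CPM (1.95 ± 0.25, limma adjusted p = 4.3e-06). The median of the 13 was -0.05, and 6 of them had a change above 0. Together they held 7597 to 12309.5 CPM in morulae and 15712 to 41245 CPM in blastocysts, mt-Co1 included. The sum without mt-Co1 was not tested, so the larger part cannot be credited to the class. Of 79 nuclear genes for oxidative phosphorylation, 9 rose and 0 fell (median 0.21). The risen share was 11.4%, beside 7.94% of all genes tested, and Sdhc, Sdhd and Cyc1 were among the 9. The summed level of the 79 was 23223 and 22379 CPM in blastocysts 13 and 15. It was between 12406 and 14115 CPM in the other 4, where morulae had between 12388 and 13820 CPM. Without blastocysts 13 and 15, 6 rose, and on the deposited scale 1 did. Proteasome subunits rose in 1 and fell in 1 of 45 cases, and mitochondrial ribosomal proteins rose in 2 and fell in 3 of 77.

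**Figure D4:**
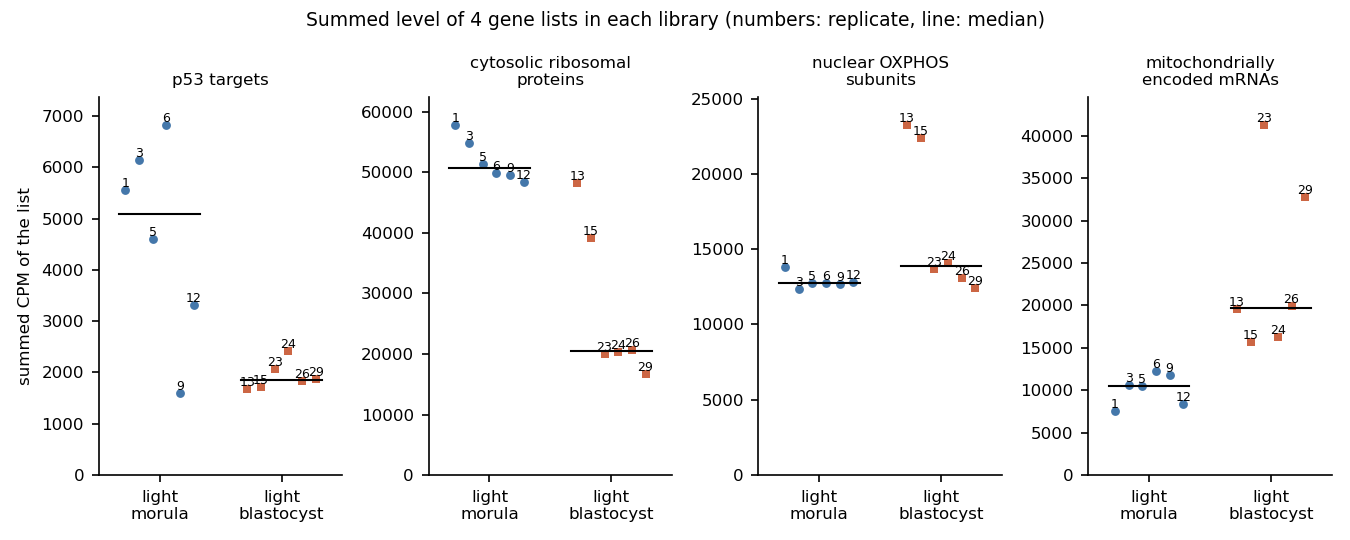
Summed CPM of p53 targets, cytosolic ribosomal protein mRNAs, nuclear oxidative phosphorylation (OXPHOS) subunits and mitochondrially encoded mRNAs in each light-exposed library, numbered by replicate, with a line at the median. Morula 9 sits with the blastocysts for p53 targets, and blastocysts 13 and 15 sit apart from the other 4 for ribosomal proteins and OXPHOS subunits.

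Among genes listed for the oocyte and maternal effect, Dppa3 fell. Reads do not tell RNA kept from the oocyte from RNA made by the embryo. The 39 oocyte and maternal effect genes together held 2474 to 4789 CPM in light morulae and 1115 to 2086 CPM in light blastocysts. Without Dppa3 the sums were 551 to 1240 CPM and 631 to 896 CPM, which overlapped. Dppa3, a maternal factor that protects methylation in the zygote, fell from 1548, 2257 and 3679 CPM to 485, 614 and 1190 CPM, without overlap (-1.71 ± 0.26, limma adjusted p = 5.1e-05). It was the 1 gene of 33 tested that fell, and Ooep was the 1 that rose, from at most 5.27 CPM to 12.9, 55.6 and 103 CPM. Markers of cumulus cells and sperm, which could come with the embryos, were called in 0 of 4 and 0 of 2 genes tested, with summed levels of at most 338 and 35.5 CPM in any light library.

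Some imprinted genes, which are expressed from 1 parental copy, rose at the blastocyst stage. Of 19 tested genes expressed from the paternal copy, 8 rose and 2 fell (median 0.77), and of 14 expressed from the maternal copy, 3 rose and 1 fell (median 1.65). Peg10, a retrotransposon-derived gene needed for the placenta, was at most 1.19 CPM in light morulae and 67.0, 178 and 331 CPM in light blastocysts. Plagl1, a zinc-finger gene, was at most 0.752 CPM and then 27.7, 44.3 and 66.0 CPM, and Igf2, a fetal growth factor gene, rose by 4.61. Ascl2, a maternally expressed trophoblast factor gene, was at most 0.610 CPM and then 11.8, 38.7 and 50.5 CPM. Peg10, Plagl1 and Ascl2 were thus near 0 in the morulae and present in each blastocyst.

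The unexposed embryos shared part of this change. Between 13 control morulae and 3 control blastocysts, 2881 of 18123 genes (15.9%) were called in a fit over the 28 libraries of both groups and stages, 1867 (10.3%) higher and 1014 (5.6%) lower, and the median of all genes was 0.35. The split was 1202 higher and 1439 lower under quantile normalization and 961 and 1124 with DESeq2. Of the 1197 genes that rose in light, 1122 (93.7%) had the same sign in control and 515 (43.0%) were called there in the same direction, which is 33.1% of the 1554 genes that rose in control and were tested in light. Of the 805 genes that fell in light, 635 (78.9%) had the same sign in control and 284 (35.3%) were called, which is 29.0% of 978. Among the risen and among the fallen genes, 4 each were called in control in the opposite direction. Across 15067 genes the light and control changes had a Pearson's r of 0.524, a description over genes that are not independent replicates.

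Of the trophectoderm markers, 9 of 26 rose in control with a median of 2.12. The difference between light and control was called for 0 of them, beside 1.5% of all genes tested. Its SE was large, as for Cdx2 (1.33 ± 1.64) and Gata3 (0.24 ± 1.89), so a count of 0 does not show equal changes. Ribosomal protein mRNAs fell in 72 of 84 cases in control (median -2.34). For 17 of the 84 the light change was higher by the interaction test, beside 0.486% of all genes tested. Their summed level was 16346 to 21932 CPM in control blastocysts. It was 48326 and 39215 CPM in light blastocysts 13 and 15 and 16659 to 20620 CPM in the other 4. Among 79 nuclear oxidative phosphorylation genes, 4 rose and 28 fell in control (median -1.01), and 8 had a higher change in light. Light blastocysts 13 and 15 had the highest summed levels of both lists among light blastocysts. The interaction was not fitted without these 2 libraries together, so their part in these counts was not tested. p53 targets fell in 4 of 28 cases in control (median 0.16), and the difference was called for 0, again beside 1.5% of all genes.

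The difference of the 2 changes was tested directly by an interaction term, in which 271 of 18123 genes (1.5%) were called, 88 (0.486%) with a higher and 183 (1.01%) with a lower change in light. With DESeq2 the split turned to 210 higher and 67 lower, with a mean CPM above 5 it was 75 and 46, with quantile normalization 120 and 104, and on the deposited scale 21 and 283. Without control blastocyst 1 it was 29 and 108. The ratio of Gm42418 to CT010467.1 was 1.49 to 1.67 in light morulae, 1.29 to 1.75 in light blastocysts, 1.42 to 1.45 in control blastocysts and 2.34 to 4.14 in control morulae, and its part in the interaction was not tested. The 16 control libraries held at most 1.07 CPM on Y-linked genes, so the marks of sex differ between the groups too and cannot be told apart from the exposure.

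Of the 19 paternally expressed genes, 5 had a higher change in light than in control and 0 a lower one. Peg10 had 0, 0 and 1.07 CPM in the 3 control blastocysts (lowest, median and highest) and at most 5.03 CPM in control morulae, and its change was higher in light by 7.05 ± 0.90 (SE, limma adjusted p = 2.8e-05). Peg3, a zinc-finger gene, went from 0, 6.61 and 86.7 to 30.7, 83.7 and 167 CPM in light and from a median of 10.9 CPM to at most 0.466 CPM in control (6.58 ± 1.61, limma adjusted p = 0.025). Gab1, Plagl1 and Snrpn were the other 3, with differences between 5.60 and 3.47. The control blastocysts thus held almost no reads of Peg10, Peg3 and Plagl1, and also 0.466 to 1.07 CPM of Y-linked reads. Other paternally expressed genes did have reads there, such as Kcnq1ot1 with 50.4 CPM in control blastocyst 1. The 24 listed genes together held 33.6, 205 and 247 CPM in control blastocysts and 328 to 750 CPM in control morulae. In control 1 of the 19 rose and 3 fell. Whether these 3 embryos were fertilized as the methods describe cannot be settled from the labels or these values, so what the control change of paternally expressed genes stands for is uncertain.

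Among single genes, Epas1, a hypoxia-inducible factor gene, had 242, 581 and 1107 CPM in light morulae and 433, 609.7 and 989 CPM in light blastocysts (0.23 ± 0.30, limma adjusted p = 0.66). In control it went from 146, 497 and 1146 CPM to 2.15, 2.33 and 7.88 CPM, so that the difference was 6.83 ± 0.63 (limma adjusted p = 1.6e-08). Sall1, a zinc-finger gene, and Lncenc1, a long noncoding RNA, also had a higher change in light, by 7.25 and 7.03. Sall1 was near 0 in all control blastocysts, at most 1.07 CPM, and between 9.67 and 24.0 CPM in light blastocysts.

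In the opposite direction, Spp1, osteopontin, was 0 in each control morula and 15.8, 733 and 798 CPM in the control blastocysts, while light libraries had at most 9.03 CPM in morulae and 2.90 CPM in blastocysts (-7.80 ± 1.05, limma adjusted p = 5.4e-05). Lama1 was 0 in each control morula and 26.3, 95.1 and 637 CPM in control blastocysts (-4.57 ± 1.00, limma adjusted p = 0.011). Lineage markers also differed between the 3 control blastocysts. Control blastocyst 1, with the highest Lama1 and Spp1, also had 144 CPM of Gata4, 252 CPM of Pdgfra, 52.6 CPM of Sox17 and 150.2 CPM of Fgf4, with 16.1 CPM of Cdx2 and 523 CPM of Krt8. Control blastocyst 3, with the lowest Lama1 and Spp1, had 0 CPM of Pdgfra and Sox17 and 3869 CPM of Krt8. Control blastocyst 2 did not follow throughout. It had 733 CPM of Spp1 but 0.466 CPM of Gata4, 0 CPM of Sox17, 74.1 CPM of Pdgfra and 1994 CPM of Krt8. The part of these cell types in the interaction was not tested. Slc25a40, Wnk3, Tmem165 and Pqlc2 had lower changes in light too, between -6.31 and -5.54. In control blastocysts Sox2, near 0 in light, rose by 2.71 (limma adjusted p = 0.023), and its difference from light was not called (-2.65, limma adjusted p = 0.27).

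**Figure D5:**
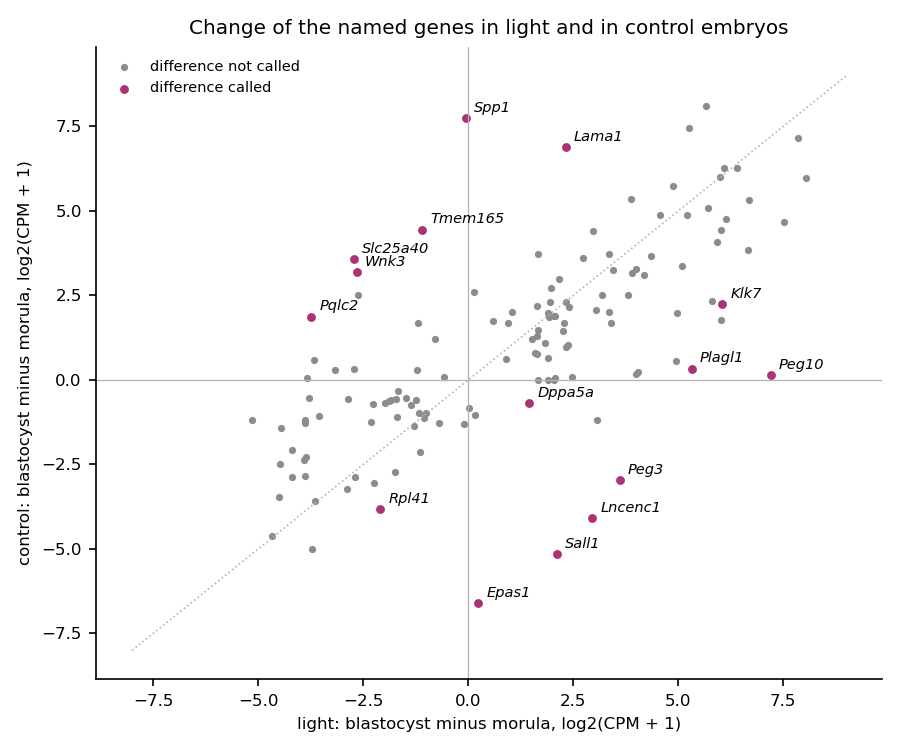
Change from morula to blastocyst of the named genes on log2(CPM + 1), light on the horizontal and control on the vertical axis, with the line of equal change dotted. Genes with a called difference are named: Epas1, Peg10, Peg3, Plagl1, Sall1 and Lncenc1 lie below the line, Spp1, Lama1, Slc25a40, Wnk3, Tmem165 and Pqlc2 above it.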

How the data were processed

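RNA of the 12 light-exposed morula and blastocyst libraries and the 16 control libraries of the same stages was read from 1 table of 26414 genes. Per the labels' processing notes, the authors used HISAT2, HTSeq 0.9.1 and mm9. The deposited values are a signal, made by the authors by dividing reads by a size factor of the library; multiplied back they gave whole reads, within 0.01, for at least 99.95% of values in each library, and in 11 genes some value was not whole. RPKM is what the study's methods name, yet the values show no division by length, so the test for normalized values was kept. The deposited scale rests largely on 2 ribosomal RNA genes, hence CPM outside this pair was used.

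limma 3.58.1 (lmFit, eBayes with trend, R 4.3.3) was fitted to log2(CPM + 1) for genes with CPM above 1 in at least 3 libraries compared, and genes were called at a Benjamini-Hochberg adjusted p under 0.05 and at least a 2-fold change. Differences on this scale understate changes of low genes. The light comparison used 12 libraries with no covariate. The control change and the interaction used 28 libraries. Exact permutation tests gave the other p-values, run in Python 3.11.15 (pandas 2.3.3, numpy 2.4.6). The fit was tested on simulated data.

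Members and lists were chosen with earlier results of these data known. Named genes are fixed defining genes, the 15 largest rises and falls among called genes without overlap and with a mean of at least 10 CPM in a group, 2 genes per list and direction with the smallest p, and the 5 largest interactions of either sign; predicted genes were left out. Gab1, Snrpn, Igf2 and further list members named were chosen after their values were seen. Alternatives were a pseudocount of 0.1, no filter, a mean CPM above 5, the deposited scale, median ratio, TMM and quantile scaling, edgeR 4.0.16 and DESeq2 1.42.0 on recovered reads, library weights, thinned reads, 1 fit over 28 libraries, X and Y genes left out, the replicate block and each library left out. Leaving out blastocysts 13 and 15 together was added after the data were seen. Promoters are from RefSeq (GRCm38.p6), transcript lengths and chromosomes from GENCODE M21, where 26329 symbols (99.7%) were found. No coordinates of mm9 were used. Values of some genes under these rules are not reported here.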

Additional observations from a re-analysis of the deposited data

Results flagged for a closer look

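Among 274 groups of 6 values, 1 library stood far from the other 5 in 23. The cut-off gives about 1 in 20 for independent normal values. These values hold many zeros and are not independent, so 23 cannot be set against that rate. Light morula 9 was apart for Y-linked reads (143 CPM, others at most 2.04), Eif2s3y (62.1 CPM), Xist (34.3 CPM, others at least 1460), Pmaip1 (32.1 CPM, others at least 174), Wnk3 (2.14 CPM, others at least 39.9), Dsc2 (8.57 CPM, others at most 0.752) and Phlda2 (8.57 CPM, others at most 1.19). Morula 12 was low in Tead4 (86.7 CPM) and Ptpn22 (7.08 CPM) and high in Adh1 (14.2 CPM). Morula 1 had the fewest genes above 1 CPM (10492, others at least 12265), a ratio of Gm42418 to CT010467.1 of 1.67 and 0 CPM of Tmem165, and morula 3 was low in Mrpl36 (1.83 CPM).

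Light blastocyst 13 was low in Ddx3y (1.87 CPM, others at least 32.2) and Inava (39.2 CPM) and high in Sox17 (11.2 CPM, others at most 0.644) and Sdhc (232 CPM, others at most 119). Blastocyst 23 was high in Krt8 (7077 CPM, others at most 5437) and in the ratio of Gm42418 to CT010467.1 (1.75). Gata4 was 0 in blastocyst 24, Pmaip1 was 0 in blastocyst 26, and Hspa4l was low in blastocyst 29 (2.15 CPM, others at least 16.8).

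The change from morula to blastocyst differed between light and control, by the interaction test of limma, for 15 named genes. It was higher in light for Sall1 (7.25), Peg10 (7.05), Lncenc1 (7.03), Epas1 (6.83), Peg3 (6.58), Plagl1 (4.98), Klk7 (3.79), Dppa5a (2.14) and Rpl41 (1.73), all on the log2 scale. It was lower for Spp1 (-7.80), Slc25a40 (-6.31), Wnk3 (-5.83), Pqlc2 (-5.61), Tmem165 (-5.54) and Lama1 (-4.57).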

How the results depend on the processing

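The number of genes called between light morulae and light blastocysts was 2002 and lay between 1645 and 2194 with a library left out, and at 1288 (730 higher, 558 lower) in 1 fit over the 28 libraries. The split by stage took between 21.8% and 39.0% of the squared distance under the alternatives, with the same p. No paired analysis was possible because light morulae and light blastocysts share no replicate number. For the groups of both treatments a replicate block was fitted, though nothing says that equal numbers mark related embryos: it left 638 genes called in control and 1 for the difference between light and control. That difference also moved to 464 genes with library weights and 121 with a mean CPM above 5, and lay between 137 and 296 with a library left out, the lowest without control blastocyst 1. The control change lay between 1630 and 2913 genes with a library left out, the lowest 3 counts without a control blastocyst. Without light blastocyst 23 the ratio of Gm42418 to CT010467.1 differed between the stages by -0.18 (exact permutation p = 0.00216), and over all leave-outs by -0.18 to -0.091. The causes were not tested.

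Of 118 named genes that changed in light, 91 did so under every alternative that tested them, 100 when the deposited scale is set aside. Of the named genes 0 changed sign. A gene filtered out under an alternative was not counted as lost there, and the fit over 28 libraries was not among these alternatives. Lost calls under a left-out library touched 14 genes. Counts of members risen or fallen in a list stayed within 1.5 times in 1419 of 1600 comparisons with an alternative. On the deposited scale 74 ribosomal protein mRNAs and 10 stress response genes fell. The interaction rests on 3 control blastocysts, and light morulae had as few as 466902 reads outside the ribosomal RNA pair.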
